A study of Mus musculus with 24 samples.

Results

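The genes described here encode the perilipins (Plin1, Plin2, Plin3, Plin4 and Plin5) and the CIDE proteins (Cidea, Cideb and Cidec), which coat cytosolic lipid droplets. They were taken by symbol from the gene identifiers of the count table, which gave 8 of 24454 genes, each with 1 row. The family was selected on measured values, because Plin4 was among the genes that differed most between combined treatment and gentamicin alone at 6 h, so that contrast of Plin4 is given as a description with no test. RNA was measured in organs of Corti (OCs), the sensory epithelium of the cochlea, from C57BL/6N pups, male and female, at P5 (5 days after birth), and kept for 24 h in medium with serum before any drug was added. The drugs were gentamicin at 50 μM (GM), an aminoglycoside toxic to hair cells, pioglitazone at 10 μM (PIO), which activates the receptor PPAR-γ, or their combination (PIO + GM), each given for 6 or 24 h, and control explants (CTRL) stayed in drug-free medium for the same times. Each of the 8 groups had 3 libraries, and 6 OCs went into a condition, so that no value belongs to a single animal and all tests measure the spread between such pools.

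The 24 totals lay between 7211357 and 15548856 counts (median 12538495), and the shallowest was PIO + GM replicate 3 at 6 h. At these totals 3 counts corresponded to a level between 0.193 and 0.416 CPM (counts scaled to a common library total), which covers counting error only. These values use the raw totals, while the CPM given below use normalised totals. Markers of the labelled tissue were present, with 8 of 8 hair cell genes and 6 of 6 supporting cell genes passing the filter on low counts. Of 8 adipocyte genes 4 passed, Adipoq, the adipocyte hormone adiponectin, had 0 to 4 counts per library, and the summed level of the list ranged from 3.79 to 8.83 CPM. Fewer cells of a type and less RNA per cell cannot be told apart in such bulk samples.

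Lipid droplets store triglycerides and cholesterol esters in a core covered by a single layer of phospholipids and proteins. Perilipins sit on this surface and regulate the access of lipases, while CIDE proteins gather where droplets touch and promote the transfer of lipid from small to large droplets. Plin1, Cidec and Plin4 are best known from adipocytes, Plin5 from muscle, heart and liver, and Cidea from brown fat, whereas Plin2 and Plin3 are found in most cell types. Several members are textbook targets of PPAR receptors, which bind DNA together with RXR at a repeat of AGGTCA hexamers separated by 1 base.

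Because pioglitazone activates such a receptor, the promoters of the 4 perilipins that passed the filter on low counts are shown, as the 250 bases before and 50 bases after a RefSeq start of the gene, in GRCm38.p6 and 5′ to 3′ along the gene. All of them lie on the minus strand, Plin2 at chr4:86670010-86670309, Plin4 at chr17:56109733-56110032, Plin5 at chr17:56117499-56117798 and Plin3 at chr17:56290462-56290761. Capitals mark matches to the letters searched on both strands, namely AGGTCA, the repeat of it with 1 base between and at most 2 mismatches, the E-box CACGTG and TATAA.
Plin2: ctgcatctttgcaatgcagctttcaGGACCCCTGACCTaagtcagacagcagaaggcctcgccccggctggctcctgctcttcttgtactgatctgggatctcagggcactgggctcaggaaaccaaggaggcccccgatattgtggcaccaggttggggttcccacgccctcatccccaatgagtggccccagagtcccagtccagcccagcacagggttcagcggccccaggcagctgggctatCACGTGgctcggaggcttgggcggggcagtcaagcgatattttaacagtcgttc
Plin4: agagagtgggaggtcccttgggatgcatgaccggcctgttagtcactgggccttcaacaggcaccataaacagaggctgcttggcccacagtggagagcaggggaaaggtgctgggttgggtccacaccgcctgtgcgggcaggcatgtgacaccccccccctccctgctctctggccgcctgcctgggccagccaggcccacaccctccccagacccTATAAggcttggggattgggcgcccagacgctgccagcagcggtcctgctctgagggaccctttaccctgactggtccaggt
Plin5: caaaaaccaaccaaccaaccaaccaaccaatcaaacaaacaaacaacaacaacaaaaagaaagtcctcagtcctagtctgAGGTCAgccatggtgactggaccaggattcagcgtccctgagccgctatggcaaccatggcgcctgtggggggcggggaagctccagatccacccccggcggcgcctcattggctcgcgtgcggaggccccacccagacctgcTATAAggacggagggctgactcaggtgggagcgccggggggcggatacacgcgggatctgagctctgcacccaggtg
Plin3: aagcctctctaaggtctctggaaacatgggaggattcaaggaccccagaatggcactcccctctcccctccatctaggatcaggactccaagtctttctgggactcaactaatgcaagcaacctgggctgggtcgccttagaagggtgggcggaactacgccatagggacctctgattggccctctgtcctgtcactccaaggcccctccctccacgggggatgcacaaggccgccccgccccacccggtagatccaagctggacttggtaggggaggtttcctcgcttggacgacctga
In Plin2 the AGGTCA hexamer stood on the other strand at bases 33 to 38 of the window, inside a repeat at bases 26 to 38 with 2 mismatches, and an E-box stood at bases 247 to 252. In Plin4 only TATAA matched, at bases 219 to 223, and in Plin5 an AGGTCA hexamer stood at bases 81 to 86 and TATAA at bases 224 to 228. A second RefSeq start of Plin5, with its window at chr17:56117249-56117548 and not printed, held AGGTCA at bases 264 to 269 and no TATAA. None of these letters matched in the Plin3 window. Among all 32851 RefSeq promoters of this length, 16.3% held AGGTCA, 3.86% the repeat at this tolerance, 7.2% the E-box and 24.9% TATAA. These matches are a description of letters in a short window.

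Plin4, Plin5 and Plin3 lie on chromosome 17 (GRCm38), the first 2 of them side by side, at chr17:56100587-56109948, chr17:56111597-56117606 and chr17:56278962-56290511, with 1648 bp between the annotated ends of Plin4 and Plin5 and 161355 bp between Plin5 and Plin3. Plin2 is at chr4:86626910-86670217 and Plin1 at chr7:79721164-79732904. Cidea is at chr18:67343564-67367794, Cideb at chr14:55754052-55758424 and Cidec at chr6:113424634-113435760. Counts were of reads starting in any exon of a gene, and RefSeq places Hdgfl2 over part of Plin4, Gm12551 over Plin2, and other genes over each CIDE gene. Whether strand was used in counting is not given in the sources used here, so reads of these overlaps could be assigned to either gene. Within the Plin4 transcript, 12.0% of 76-base windows recur in the same transcript, which encodes a repeated amphipathic helix.

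Plin3 and Plin2 made up nearly the whole of the perilipin transcripts. Per length, as RPKM (the CPM divided by gene length), Plin3 averaged 24.4 (5.54 to 45.7 over the 24 libraries) and Plin2 averaged 21.7 RPKM (14.2 to 30.7). The mean levels of these genes exceeded those of 80.7% and 77.4% of the 16317 genes tested. Plin4 followed at 1.5 RPKM (0.305 to 3.60), below every library's value for Plin2 and Plin3. Cidea averaged 0.915 RPKM (0.114 to 1.61), Plin5 averaged 0.592 RPKM (0.118 to 1.26) and Cideb averaged 0.404 RPKM (0 to 0.899). The ranges of neighbours in this order overlapped, except between Plin2 and Plin4.

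Plin1 and Cidec, the perilipin and the CIDE protein of large adipocyte droplets, were near the detection limit and were not tested, so that 6 of 8 members passed the filter. Plin1 had 22 counts in all libraries together and was at 0 in 14 of 24. The highest Plin1 value was 8 counts in the shallowest library, PIO + GM replicate 3 at 6 h, and no other library had over 3. Cidec had 32 counts in all, at most 3 in a library, and was at 0 in 5 libraries. No difference between groups in either gene was detectable at this depth.

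**Figure D1:**
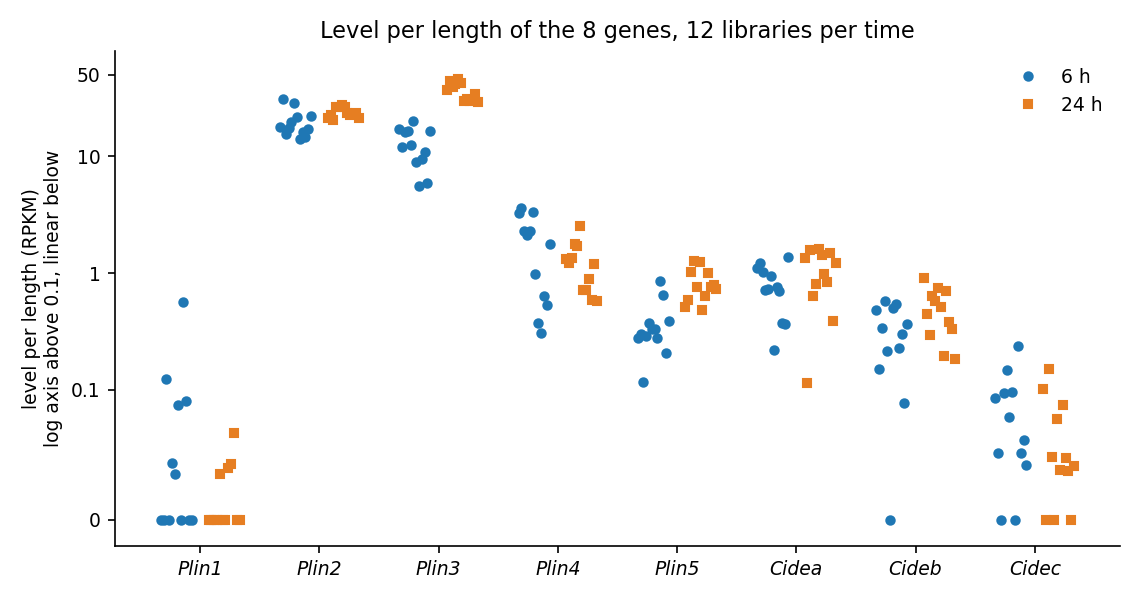
Level per length (RPKM, log axis above 0.1 and linear below) of each member in every library, with circles for the 12 libraries of 6 h and squares for the 12 libraries of 24 h. Plin2 and Plin3 lie between 5.54 and 45.7 RPKM in every library, the other members at 3.60 RPKM or below, and Plin1 is at 0 in 14 libraries.

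The comparison of PIO with CTRL and of PIO + GM with GM asks what the PPAR-γ agonist changed with and without the toxic drug. Plin4, the perilipin with the longest helix repeat, had lower values in the PIO libraries than in the CTRL libraries at both times, and in PIO + GM than in GM at 24 h, but none of these differences passed the test. Plin3, a perilipin that also occurs free in the cytosol and binds nascent droplets, fell at 6 h when averaged over gentamicin, and its differences in the separate contrasts and at 24 h did not pass. In the 6 h CTRL libraries Plin4 had 18.8, 20.7 and 13.2 CPM (234, 235 and 165 counts). With PIO it had 3.69, 3.07 and 10.3 CPM (42, 29 and 142 counts). All 3 PIO libraries were below all 3 CTRL libraries, with replicate 3 apart from the other 2 and nearer to CTRL. The log2 fold change was -1.61 (SE 0.42), which did not pass the threshold of 0.05 (edgeR quasi-likelihood test, adjusted p = 0.0880 over all genes tested). It passed with DESeq2 (adjusted p = 0.00982) and with the GC trend described below removed (edgeR, adjusted p = 0.0418), and without PIO replicate 3 it was -2.37 (edgeR, adjusted p = 0.0192). It did not pass in 10 of 14 other settings, with adjusted p up to 0.458 in a fit of the 12 libraries of 6 h (edgeR).

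With gentamicin present at 6 h, Plin4 had 12.2, 13.3 and 19.1 CPM in GM and 5.68, 2.17 and 1.76 CPM in PIO + GM. The groups did not overlap, and the lowest value, 13 counts, came from the shallowest library. This contrast led to the choice of the family, and its log2 fold change of -2.18 (SE 0.44, a fold of 0.220) is given with no test. Leaving out a single library moved it between -2.90 and -1.93.

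Averaged over the absence and presence of gentamicin at 6 h, Plin4 had a log2 fold change of -1.90 with pioglitazone (SE 0.30, 6 libraries against 6), a value that includes the libraries which chose it.

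Plin3 had 36.9, 25.9 and 34.7 CPM in CTRL and 35.2, 26.9 and 43.6 CPM in GM at 6 h. It had 23.5, 12.8 and 35.7 CPM in PIO and 19.4, 12.0 and 20.3 CPM in PIO + GM. PIO + GM lay wholly below GM, while PIO overlapped with CTRL through PIO replicate 3, the library that was also high for Plin4. The log2 fold change of Plin3 in PIO + GM against GM was -1.04 (SE 0.26) and stood outside the threshold (edgeR, adjusted p = 0.0525). It passed with DESeq2 (adjusted p = 0.00656), among genes with at least 10 counts in every library (edgeR, adjusted p = 0.0476) and without PIO + GM replicate 1 (edgeR, adjusted p = 0.0146), but not in the 12 libraries of 6 h (edgeR, adjusted p = 0.317). It did not pass in 9 of 14 other settings. Averaged over gentamicin, Plin3 fell by 0.73 on the log2 scale (SE 0.18, edgeR adjusted p = 0.0135), and 5 of 6 pioglitazone libraries were below the lowest library without it. The call was lost when only the 12 libraries of 6 h were fitted (-0.73, adjusted p = 0.112).

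At 6 h these differences ran alongside a relation with base composition. In the averaged contrast the fold changes of 15390 genes were lower at higher transcript GC content (Spearman's rho -0.57 across genes, not replicates). The transcripts of Plin4 and Plin3 have 55.9% and 54.9% GC, and the 1699 genes within 1 percentage point of Plin4 had a median of -0.24. With the trend removed from each library, Plin4 was -1.70 and Plin3 -0.53 (edgeR, adjusted p = 0.0320 for Plin3). In PIO + GM against GM the trend was steeper (rho -0.63), and Plin3 without it was -0.77 (edgeR, adjusted p = 0.101).

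At 24 h no pioglitazone contrast of Plin4 or Plin3 passed the test, and their values were as follows. Plin4 had 7.56, 7.00 and 7.77 CPM in CTRL and 3.41, 6.90 and 3.29 CPM in PIO. In GM it had 10.2, 9.73 and 14.6 CPM, and in PIO + GM 4.10, 4.09 and 5.15 CPM. No library with pioglitazone reached any library without it, although PIO replicate 2 was close to the lowest CTRL library. Against GM, Plin4 in PIO + GM differed by -1.37 on the log2 scale (SE 0.42), which did not pass over all genes (edgeR, adjusted p = 0.325). Averaged over gentamicin the log2 fold change was -1.04 (SE 0.30), again outside the threshold (edgeR, adjusted p = 0.0613). It passed with DESeq2 (adjusted p = 0.0135), in a fit of the 12 libraries of 24 h (edgeR, adjusted p = 0.0124), with the GC trend removed (edgeR, adjusted p = 0.0187) and without PIO replicate 2 (-1.26, edgeR adjusted p = 0.0394). It also passed with a replicate block, described below. It did not pass in 14 of 20 other settings (edgeR, adjusted p up to 0.148), and of 12 fits without a library it passed in 1.

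Plin3 at 24 h had 80.3, 95.3 and 84.0 CPM in CTRL and 65.9, 73.9 and 62.9 CPM in PIO. It had 89.2, 98.7 and 91.6 CPM in GM and 63.6, 66.4 and 63.6 CPM in PIO + GM. Every library with pioglitazone lay below every library without it. How many of all genes separate in this way, here or for Plin4, was not counted. The log2 fold changes were -0.53 (SE 0.25, edgeR adjusted p = 0.664) for PIO + GM against GM and -0.44 (SE 0.18, edgeR adjusted p = 0.194) for the average, and neither passed over all genes. In a fit of the 12 libraries of 24 h alone both passed, at -0.54 (edgeR, adjusted p = 0.0279) and -0.45 (edgeR, adjusted p = 0.00323). With a replicate block, described below, the average passed too. PIO + GM against GM did not pass in 12 of 14 other settings (edgeR, adjusted p up to 0.9998). The average did not pass in 17 of 20 (edgeR, adjusted p up to 0.328). Of the fits without a library, 0 of 6 and 0 of 12 passed. At this time GC content was only weakly related to the averaged fold changes (rho -0.06), and more so to those of PIO + GM against GM (rho -0.24).

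**Figure D2:**
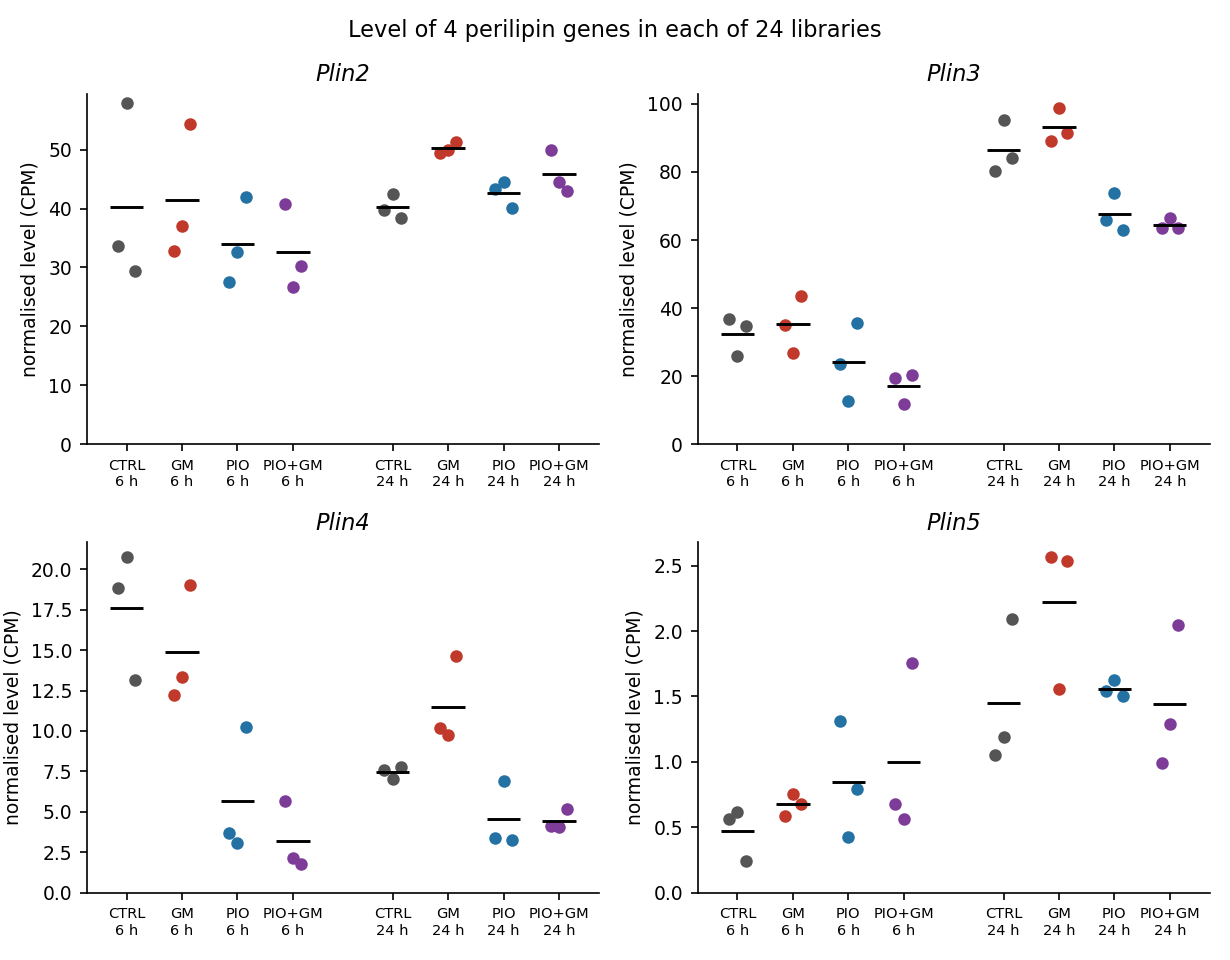
Level of Plin2, Plin3, Plin4 and Plin5 (CPM, linear axes from 0) in the 3 libraries of each group, with points for libraries and lines for group means. Plin4 at 6 h lies at 12.2 CPM or above without pioglitazone and at 10.3 CPM or below with it, and Plin3 at 24 h at 80.3 CPM or above without it and at 73.9 CPM or below with it.

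Of the 6 members tested, edgeR called 0 in PIO against CTRL at 6 h (1 at an unadjusted p under 0.05 and 1 by DESeq2), where 0.337% of all genes were called. It called 0 at 24 h (0 at an unadjusted p under 0.05 and 0 by DESeq2), against 0.153% of all genes. In PIO + GM against GM at 6 h, Plin4 was left out of the count because this contrast chose it, and of the other 5 members edgeR called 0 (1 unadjusted and 1 by DESeq2, Plin3 in each case), against 1.32% of all genes. At 24 h in that contrast edgeR called 0 of 6 (2 unadjusted, 0 by DESeq2), against 0.11%. In the contrast averaged over gentamicin at 6 h, which contains the libraries that chose Plin4, it called Plin3 among the other 5, lower, against 16.1% of all genes. In the average at 24 h it called 0 of 6 (2 unadjusted and 1 by DESeq2), against 2.79%. Over the 16317 genes, 2479, 1621, 4087, 1219 and 2750 had an unadjusted p under 0.05 and 383, 162, 1330, 112 and 970 were called by DESeq2 in PIO against CTRL at 6 h and 24 h, PIO + GM against GM at 6 h and 24 h, and the average at 24 h. In the average at 6 h the median log2 fold change of the 5 members other than Plin4 was -0.29, beside -0.02 over all genes and -0.24 over the genes within 1 percentage point of the GC content of Plin4. In the average at 24 h the median of the 6 members was -0.35, beside -0.0023 over all genes.

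Plin2, the perilipin of most non-adipose cells, whose protein is stabilised by stored lipid, overlapped between groups with and without pioglitazone at 6 h. Its mean was 40.3 ± 15.4 CPM (SD, n = 3) in CTRL and 34.0 ± 7.35 CPM in PIO, with 41.4 ± 11.5 CPM in GM and 32.6 ± 7.34 CPM in PIO + GM. Neither difference passed the test, and at 24 h the means with pioglitazone were 42.7 ± 2.30 CPM in PIO and 45.8 ± 3.69 CPM in PIO + GM. For Plin5, which tethers droplets to mitochondria, the 6 h means were 0.473 CPM in CTRL, 0.676 CPM in GM, 0.845 CPM in PIO and 0.999 CPM in PIO + GM. These rest on 3 to 15 counts per library, the groups with and without pioglitazone overlapped, and no difference passed the test. In the averaged contrasts, the unadjusted p of Plin2, Plin5, Cidea and Cideb was 0.05 or above at both times.

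Gentamicin alone moved none of the members counted here past the threshold. Plin4 is left out at 6 h, where the GM libraries were part of the contrast that chose it. In GM against CTRL at 6 h edgeR called 0 of the other 5 members (0 at an unadjusted p under 0.05 and 0 by DESeq2), and it called 0% of all genes. At 24 h it likewise called 0 of 6 (0 unadjusted and 0 by DESeq2), against 0.0123% of all genes. Plin2 at 24 h was 49.4, 49.9 and 51.3 CPM in GM and 39.7, 42.6 and 38.4 CPM in CTRL. These groups did not overlap, nor did those of Plin4 at 24 h given above, which lay higher in GM in each case, but neither difference passed (edgeR, unadjusted p = 0.165 for Plin2 and 0.138 for Plin4). Cidea, a CIDE protein that enlarges droplets in brown fat, was lower in GM at 6 h without overlap (0.841, 0.843 and 1.09 CPM against 1.29, 1.41 and 1.20 CPM), on 10 to 16 counts per library (edgeR, unadjusted p = 0.472). The share of all genes without overlap between such groups was not counted. The summed level of 8 hair cell markers was 207 to 267 CPM in GM and 285 to 381 CPM in CTRL at 24 h, and that of 10 macrophage markers was 114 to 228 CPM and 117 to 150 CPM. Their part in the levels of Plin2 and Plin4 was not tested.

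Of the 5 members other than Plin4, whose 6 h libraries chose the family, the interaction between pioglitazone and gentamicin at 6 h called 0 (edgeR, 0 unadjusted), and at 24 h it called 0 of 6 (edgeR, 0 unadjusted), beside 0% of all genes at each time. DESeq2 called 0 genes in both. The interaction of pioglitazone with time, which uses the same 6 h libraries, called 0 of the 5 others (edgeR, 0 unadjusted, 0 by DESeq2), against 0.00613% of all genes. For Plin4 the 6 h and 24 h values stand side by side with no test of their difference.

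**Figure D3:**
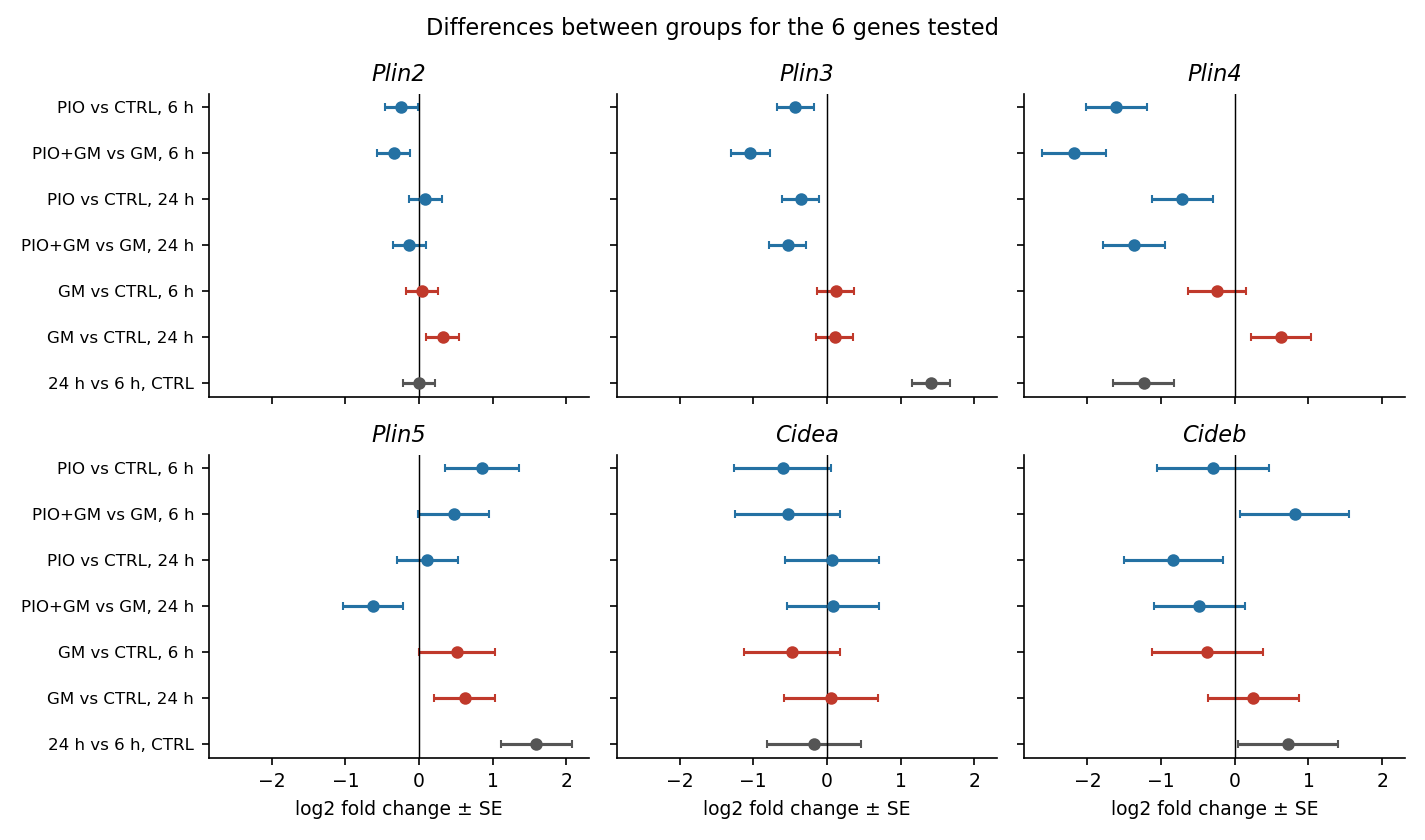
Log2 fold change (points) with its SE (bars) from edgeR for the 6 members tested, for pioglitazone in blue, gentamicin in red and time in CTRL in grey. All 4 pioglitazone contrasts of Plin4 and of Plin3 lie below 0. The lowest, -2.18 for Plin4 in PIO + GM against GM at 6 h, is the contrast that chose the family. None of the other pioglitazone contrasts shown for these genes passed the adjusted threshold. Plin3 and Plin5 in CTRL rise with time by 1.41 and 1.59.

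Between 6 and 24 h in culture, Plin3, Plin5 and Plin4 changed in CTRL. Plin3 rose from 25.9 to 36.9 CPM at 6 h to 80.3 to 95.3 CPM at 24 h, a log2 fold change of 1.41 (SE 0.26, edgeR adjusted p = 0.000526). Plin5 rose from 0.563, 0.618 and 0.240 CPM (7, 7 and 3 counts) to 1.06, 1.19 and 2.10 CPM (12, 18 and 24 counts), a log2 fold change of 1.59 (SE 0.48, edgeR adjusted p = 0.0179), which held in 4 of 6 fits without a library and reached an adjusted p of 0.0947 in the others. Plin4 went the other way, from 17.6 ± 3.93 to 7.44 ± 0.40 CPM (SD, n = 3), a log2 fold change of -1.24 (SE 0.41, edgeR adjusted p = 0.0290). The Plin4 call was lost in 5 of 6 fits without a library, with adjusted p up to 0.104. Without CTRL replicate 3 of 24 h, Plin3 alone of the members was called. These 3 of 6 members stand beside 28% of all genes called between the times in CTRL.

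Averaged over the 4 treatments, Plin3 rose by 1.55 (SE 0.13, edgeR adjusted p = 6.88e-09) and Plin5 by 1.19 (SE 0.23, edgeR adjusted p = 0.000152) on the log2 scale. Both calls held in every fit that kept the gene, including all 24 without a library. Plin2 rose by 0.27 (SE 0.11, edgeR adjusted p = 0.0384), a call that held in 10 of 24 fits without a library and was lost with DESeq2 (adjusted p = 0.0546), with its size factors in edgeR (adjusted p = 0.0614) and among genes with at least 10 counts in every library (edgeR, adjusted p = 0.0523). Plin4 was left out of the count, because this average contains the 6 h libraries that chose it. Of the other 5 members 3 were called, all higher at 24 h, where 62.6% of all genes were called. The median log2 fold change of these 5 was 0.58 beside 0.02 over all genes.

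Ratios of group means between the times are given per treatment as a description, with no test. The rise of Plin3 was seen under each, with 24 h means 2.66 times those of 6 h in CTRL, 2.65 times in GM, 2.81 times in PIO and 3.75 times in PIO + GM. The ratio for Plin4 was 0.423 in CTRL, 0.774 in GM, 0.798 in PIO and 1.39 in PIO + GM. For Plin2 the ratio ran from 0.998 in CTRL to 1.41 in PIO + GM.

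As a share of summed perilipin RPKM, Plin2 led in most 6 h libraries, with 45.6% to 72.1% (median 55.5%), and Plin3 held 24.8% to 47.0% (median 37.0%). At 24 h Plin3 led with 51.6% to 64.4% (median 57.5%) and Plin2 held 32.9% to 46.3% (median 38.3%). The ratio of Plin3 to Plin2 per length was 0.343 to 1.03 at 6 h and 1.11 to 1.96 at 24 h, so that every 24 h library lay above every 6 h library. Plin4 held 1.12% to 8.50% at 6 h and 1.08% to 3.46% at 24 h. The shallowest library stood out at 6 h with a Plin1 share of 2.08%, which rests on its 8 counts.

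**Figure D4:**
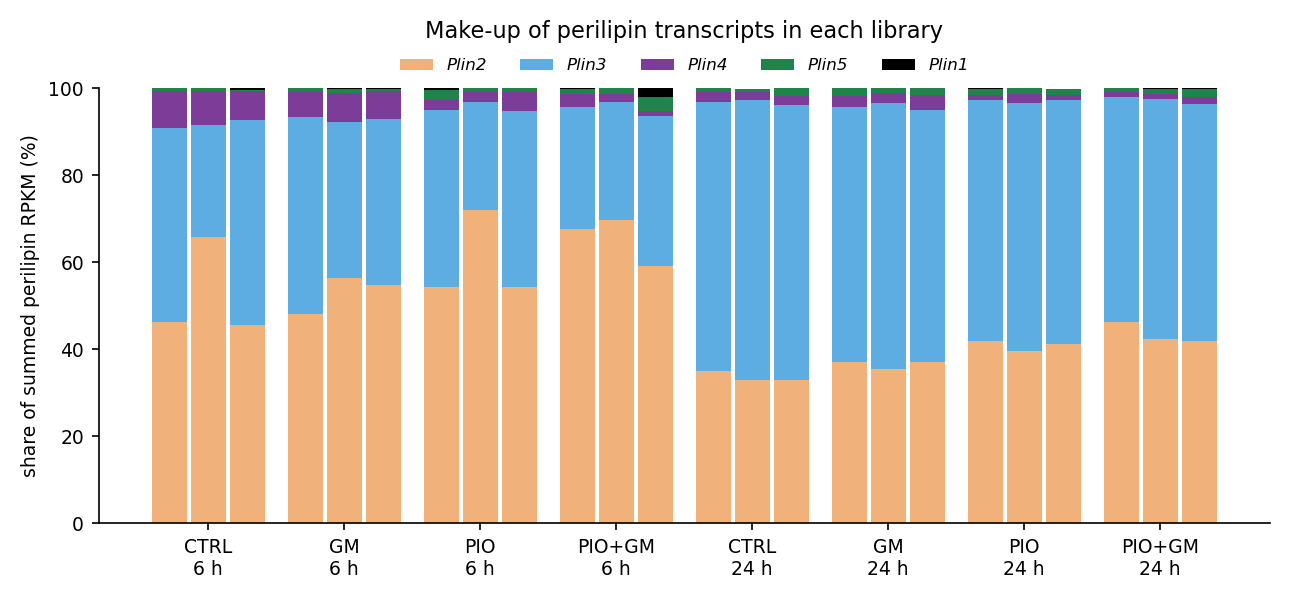
Share of each perilipin in the summed perilipin RPKM (%) of every library, in 3 bars per group, each bar showing the whole. Plin2 holds 45.6% to 72.1% at 6 h and 32.9% to 46.3% at 24 h, and Plin3 goes from 24.8% to 47.0% to 51.6% to 64.4%.

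The CIDE genes gave few counts. Cidea had 2 to 28 counts per library, and its group means ran from 0.649 ± 0.344 CPM (SD, n = 3) in PIO + GM at 6 h to 1.30 ± 0.107 CPM in CTRL at 6 h. In CTRL at 24 h its replicates spread from 0.132 to 1.83 CPM, wider than any difference between group means. Cideb, known from liver where it serves lipoprotein lipidation, had 0 to 13 counts per library and group means from 0.297 CPM in PIO at 6 h to 0.763 CPM in GM at 24 h. For both genes the unadjusted p was 0.05 or above in all comparisons, and the approximate 95% intervals were wide, for Cidea in the averaged pioglitazone contrast at 6 h from -1.52 to 0.39 on the log2 scale.

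Other genes of the droplet were taken from a list of 43 genes of triglyceride synthesis, droplet formation, lipolysis and droplet coats, of which 39 were tested. With pioglitazone averaged over gentamicin at 6 h, edgeR called 2 higher and 1 lower of the 39 (7 by DESeq2), where edgeR called 16.1% of all genes and DESeq2 called 3435 of the 16317, so that the list held no larger share than the whole table. Vps13c and Vps13a, lipid transfer proteins at contacts between membranes, were higher by 0.38 (SE 0.08) and 0.49 (SE 0.11) on the log2 scale (edgeR, adjusted p = 0.00477 and 0.00712). Cav1, the main coat protein of caveolae, was -0.73 (SE 0.24, edgeR adjusted p = 0.0425). In the other contrasts of pioglitazone and gentamicin, interactions included, edgeR called 0 of the 39, with 0 to 9 at an unadjusted p under 0.05 and 0 to 3 called by DESeq2, depending on the contrast. Over the whole table these contrasts held 197 to 4087 genes at an unadjusted p under 0.05 and 0 to 1330 called by DESeq2. The median of the 39 was 0.01 at 6 h and 0.09 at 24 h in the averaged contrasts.

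Between the times, averaged over treatments, 13 of the 39 were called higher and 10 lower, where 62.6% of all genes were called. Gpat3, an acyltransferase of the first step of triglyceride synthesis, fell by 2.36 on the log2 scale (SE 0.15, edgeR adjusted p = 2.1e-10), and Cavin1, a caveolar coat protein, fell by 1.28 (SE 0.12, edgeR adjusted p = 3.08e-08). Bscl2, the seipin at which droplets bud from the endoplasmic reticulum, rose by 0.69 (SE 0.10, edgeR adjusted p = 8.37e-06), and Lpcat2, which makes phosphatidylcholine on droplets, rose by 0.51 (SE 0.06, edgeR adjusted p = 8.75e-07). In CTRL alone, 6 were higher and 6 lower beside 28% of all genes called, led by the same Gpat3 (-2.57, SE 0.30, edgeR adjusted p = 1.21e-05).

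Marker levels of other cell types are given beside Plin4. At 6 h the adipocyte list summed to 4.83 to 5.65 CPM in CTRL and 5.28 to 6.67 CPM in PIO, and to 4.08 to 5.14 CPM in GM and 4.25 to 7.30 CPM in PIO + GM. The ranges overlapped in both contrasts. Slc2a4, the insulin-responsive glucose transporter shared with muscle, carried most of that sum. The striated muscle list, with 5 of 8 genes past the filter, summed to 2.16 to 4.50 CPM in CTRL and 1.95 to 4.87 CPM in PIO at 6 h. The macrophage list, with 10 of 10, summed to 67.5 to 154 CPM and 58.5 to 121 CPM, and the supporting cell list to 476 to 1023 CPM and 519 to 757 CPM. The hair cell list summed to 244 to 409 CPM in CTRL, 180 to 321 CPM in PIO, 227 to 398 CPM in GM and 224 to 295 CPM in PIO + GM. The hepatocyte list, with 2 of 4 genes past the filter and carried by Ttr, summed to 7.88 to 13.7 CPM in CTRL and 7.09 to 26.2 CPM in PIO, and Alb had 0 to 5 counts per library. At 24 h the adipocyte list summed to 5.81 to 8.09 CPM in CTRL, 3.79 to 6.57 CPM in PIO, 6.07 to 8.77 CPM in GM and 5.23 to 8.83 CPM in PIO + GM. At that time the hepatocyte and muscle lists were lower in PIO than in CTRL without overlap, at 6.83 to 11.2 CPM against 12.7 to 31.8 CPM and at 1.93 to 2.57 CPM against 2.64 to 4.89 CPM. In PIO + GM and GM their ranges overlapped, at 6.82 to 15.5 CPM and 12.0 to 36.2 CPM for hepatocytes and at 1.85 to 3.68 CPM and 3.07 to 3.64 CPM for muscle. None of these sums was tested, and no muscle gene exceeded 23 counts in a library. The macrophage list summed to 80.5 to 210 CPM in PIO at 24 h and 73.2 to 204 CPM in PIO + GM. The hair cell list summed to 163 to 309 CPM and 137 to 244 CPM. The part of these cell types in the levels of Plin4 was not tested.

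Genes whose log2 level ran most closely with each member over the 24 libraries are given as a description, since all libraries share their groups and depth. For Plin3 they were Efs (Pearson's r = 0.993) and Pgghg (r = 0.985), and for Plin4 Clic1 (r = 0.913) and Vasp (r = 0.908). Plin2 ran most closely with Rab31 (r = 0.894) and Kcnj8 (r = 0.889), and Plin5 with A430046D13Rik (r = 0.848) and Fancg (r = 0.842). The closest genes to Cidea, Ufsp1 and Pla2g5, reached 0.642 and 0.611, and those to Cideb, Pdzd2 and Smim22, reached 0.657 and 0.641. Among the members themselves r was 0.652 for Plin3 with Plin5, 0.608 for Plin2 with Plin3, and -0.214 for the neighbours Plin4 and Plin5.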

How the data were processed

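Total RNA was sequenced from 24 libraries of OC explants in 8 groups of treatment and time. The authors mapped reads with STAR to mm10 (per the labels' processing notes) and deposited raw counts per Entrez gene, made with qCount of QuasR from reads whose start fell in a RefSeq exon, with the gene length. Strand use and reads with several matches are not given in the sources used here. Identifiers were matched to symbols for 24380 of 24454 rows.

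Tests were run with the quasi-likelihood method of edgeR 4.0.16 in R 4.3.3 (TMM scaling, filterByExpr, 16317 genes) in a single fit of all 24 libraries with a mean per group, as the study used the generalised linear model of edgeR. P-values were adjusted by Benjamini-Hochberg over all genes tested, with a threshold of 0.05. Log2 fold changes of edgeR carry its default prior count, and a prior count of 2 was used only for log2 levels of single libraries. CPM use TMM-scaled totals, and RPKM divide them by the deposited length. DESeq2 1.42.0 served as an alternative, with other filters, scalings, fits, a replicate block, removal of a GC trend (added after seeing the data) and left-out libraries. The fit was tested on simulated counts.

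Members, gene lists and tests were chosen with earlier results of these data known. A log2 fold change is printed for a member only where its unadjusted p was under 0.05, and ratios of means between the times are descriptions. Of the droplet list, up to 4 genes per comparison past the threshold are named, lowest p first, and for each member the 2 genes most correlated with it. Promoter sequences are from RefSeq (GRCm38.p6), matched by symbol for 7 members. No protein sequences were used here.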

Additional observations from a re-analysis of the deposited data

How the results depend on the processing

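No log2 fold change printed above for a member changed its direction in the settings tried, while members given by an unadjusted p of 0.05 or above and the other droplet genes were not compared across settings. In PIO against CTRL at 6 h the number of members called rose from 0 to 1 (Plin4) with DESeq2, with the GC trend removed and with the replicate block and the GC trend removed together, and was 0 to 1 without a library. In PIO + GM against GM at 6 h the count includes Plin4, which this contrast chose, and says nothing of the stability of that gene. With Plin4 counted as a description, it went from 1 to 2 by the addition of Plin3 with at least 10 counts in every library, with DESeq2 and with the replicate block with or without removal of the GC trend, to 0 in a fit of the 12 libraries of 6 h, and to 0 to 2 without a library. At 24 h in that contrast it went from 0 to 1 (Plin3) in the 12 libraries and with the block and GC trend removed. For pioglitazone averaged over gentamicin the count at 6 h, which again includes Plin4 as a description, went from 2 to 1 in the 12 libraries by the loss of Plin3. At 24 h it went from 0 to 1 (Plin4) with DESeq2 and with the GC trend removed, and to 0 to 1 without a library. It went to 2 (Plin4 and Plin3) with the replicate block, in the 12 libraries and with block and GC removal together. Between the times it was 1 to 3 without a library in CTRL, and went from 3 to 1 in the average with at least 10 counts in every library, a filter that dropped Plin5 and under which Plin2 missed the threshold (adjusted p = 0.0523 by edgeR). Causes were not tested, other than for dropped genes or fewer libraries.

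The replicate numbers were not taken to pair libraries, since same-numbered libraries deviated together at over 0.1 in only 9 of 18 pairs at 6 h (mean r 0.113) and 15 of 18 at 24 h (mean r 0.38), although 19 of 24 libraries correlated best with a library of their own number. With the block the common coefficient of variation was 0.177 rather than 0.225, and it moved the calls over all genes from 216 to 1990 in PIO + GM against GM at 6 h.

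Over all genes, alternatives other than leaving out a library gave 0 to 874 calls (55 as reported) in PIO against CTRL at 6 h, 16 to 1024 (25) at 24 h, 0 to 1990 (216) and 13 to 225 (18) in PIO + GM against GM, 145 to 4403 (2625) and 279 to 3182 (456) for averaged pioglitazone, 0 to 15 (2) for GM at 24 h and 1 to 46 (1) for pioglitazone with time. Leaving out PIO + GM replicate 1 at 6 h gave 4078 calls in PIO + GM against GM, and leaving out replicate 2 gave 4. Without a library the calls ran from 6 to 123 in PIO against CTRL at 6 h and from 2 to 55 at 24 h. They ran from 1 to 8 in PIO + GM against GM at 24 h. For averaged pioglitazone they ran from 1169 to 5135 at 6 h and from 192 to 390 at 24 h, and between the times in CTRL from 2692 to 4280. Removing the GC trend, chosen after seeing the data, turned the split of higher and lower calls at 24 h from 6 and 19 to 194 and 70 in PIO and from 129 and 327 to 1275 and 493 in the average, and at 6 h in PIO from 24 and 31 to 145 and 70. Without a filter the median of all genes between the times was -0.14 on the log2 scale. Depth limits Plin1, Cidec, Cideb, Cidea and Plin5, whose libraries held at most 38 counts.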
